A study of Mus musculus with 12 samples.

Results

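The genes described here are 38 genes of autophagy and ER-phagy, chosen by name from the known parts of the pathway. Their values were not used as a rule, but earlier results of these data were known when they were chosen. The deposited tables listed 37 of the 38 among 24189 genes in all, and *Atg101* was not listed under that symbol. All 37 reached at least 1 TPM (a level corrected for transcript length and set to the same total in every library) in every group and entered every test. The RNA came from B lineage cells of C57BL/6 mice, in 10 libraries with 2 per group. In 3 of the 5 groups, B cells of the spleen spent 8 days in culture on 40LB feeder cells, which present CD40 ligand and BAFF, with IL-4 and then IL-21, and plasmablasts (PBs) were sorted by surface markers that included CD138+ and CD23-. These groups were the *Xbp1* fl/fl control, the Xbp1-deficient *Cd23*-Cre *Xbp1* fl/fl, in which Cre driven by *Cd23* deletes the floxed alleles in B cells, and *Bhlha15* CreER/CreER, in which CreER was inserted into *Bhlha15*, the gene of Mist1. The other groups were splenic plasma cells (PCs) sorted as TACI+ CD138+ cells 7 days after immunization with NP-KLH in alum, either *Cd23*-Cre *Bhlha15* fl/fl or a control that the labels call wild type and the study's sample list calls *Bhlha15* fl/fl. The *Xbp1* fl/fl PBs were the only control for both PB mutants, and the age of the mice and any pooling were not given in the sources used here. Mist1 binding was given as 2 peak lists from plasmablasts of *Bhlha15* fl/fl R26 BirA/BirA mice, raised by 4 days of LPS and enriched for CD138+, in which Mist1 carried a biotin acceptor tag and the BirA ligase was expressed from the *Rosa26* locus.

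Macroautophagy encloses cytoplasm in a double membrane that then fuses with the lysosome. The ULK complex starts the process, a class III phosphatidylinositol 3-kinase complex marks the forming membrane, WIPI proteins read that mark, ATG9 and ATG2 supply lipid, and the ATG12 and ATG8 conjugation systems attach proteins of the LC3 and GABARAP families to the membrane. Receptors link the cargo to these ATG8 proteins. In ER-phagy the cargo is endoplasmic reticulum and the receptors sit in the ER membrane or bind it. Plasma cells hold a very large ER for antibody secretion, and autophagy is known to limit ER size and antibody output in them and to support their survival. Xbp1 is the transcription factor of the IRE1 arm of the unfolded protein response, and Mist1 is a basic helix-loop-helix factor of secretory cells that binds E-boxes.

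The libraries followed their labels at the targeted genes. In TPM, *Bhlha15* was at 176 and 159 in the 2 control PB libraries, 3.57 and 2.60 in Xbp1-deficient PBs, 0.210 and 0.551 in *Bhlha15* CreER/CreER PBs, 258 and 242 in control PCs and 14.4 and 16.6 in Mist1-deficient PCs. *Xbp1* RNA fell by 0.84 on the log2 scale in Xbp1-deficient PBs (SE 0.124, adjusted p = 0.00144), and the values cover the whole gene, so the loss of an exon was not measured. TPM keep no read depth, so the depth behind a value is not known and counting error could not be given. Among RNAs of other cells, the summed level of 7 neutrophil markers was 121 and 120 TPM in Xbp1-deficient PBs against 1.08 to 8.41 TPM in the other PBs and 439 to 938 TPM in PCs, with 5 of 7 at 1 TPM or more in Xbp1-deficient PBs, 2 or 3 in the other PBs and 7 in PCs. The sum of 6 fibroblast markers, which the feeder cells can supply, was 947 to 1883 TPM in PBs and 25.3 to 31.1 TPM in PCs, with 6 of 6 and 3 of 6 at 1 TPM or more. The sum of 7 macrophage markers was 32.6 to 35.1 TPM in Xbp1-deficient PBs, 134 to 167 TPM in the other PBs and 204 to 246 TPM in PCs, with 2 of 7 at 1 TPM or more in PBs and 7 in PCs. In PBs this sum was mostly *Cd68*, while *Lyz2* was higher in Xbp1-deficient PBs, at 15.1 and 15.8 TPM against 5.86 and 5.22 TPM in controls. T cell markers summed to 8.43 to 13.5 TPM in PBs and 69.9 to 100 TPM in PCs, and erythroid markers to at most 9.91 TPM in any library, with *Hbb-b1* listed at 0 in all. The 9 plasma cell markers were all at 1 TPM or more in every group, with a sum of 21306 to 21929 TPM in Xbp1-deficient PBs, 38689 to 42143 TPM in the other PBs and 91694 to 98975 TPM in PCs. This sum was mostly *Igj* and *Mzb1*. *Mzb1* was at 15573 and 14995 TPM in control PBs and at 3707 and 3547 TPM in Xbp1-deficient PBs. *Prdm1*, at 205 and 175 against 239 and 296 TPM, and *Irf4*, at 683 and 651 against 865 and 971 TPM, were higher in both mutant libraries. In limma 5 of the 9 were called lower there and 0 higher. The part of these markers in the results was not tested. In bulk samples, fewer cells of a type and less RNA per cell cannot be told apart.

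The autophagy genes were well expressed in every group. The median of their mean levels was 33.3 TPM in control PBs, 37.5 TPM in Xbp1-deficient PBs, 32.8 TPM in *Bhlha15* CreER/CreER PBs, 40.7 TPM in control PCs and 44.8 TPM in Mist1-deficient PCs. In the PB groups 28 of the 37 lay above the median of all genes with at least 1 TPM, and 30 of 37 did so in the PC groups. The levels spanned more than 100-fold within a group. In *Xbp1* fl/fl PBs *Gabarap*, an ATG8 protein that is attached to the membrane, stood highest at 789 and 781 TPM. *Sqstm1*, the receptor p62, followed at 624 and 617 TPM. *Atg14*, the subunit that directs the phosphatidylinositol 3-kinase to autophagy, stood lowest at 5.74 and 6.57 TPM, and *Atg4c*, a protease that trims ATG8 proteins, was close to it at 7.84 and 7.55 TPM. Replicates were close, with a median difference between the 2 libraries of a group of 0.0613 to 0.111 on the log2 scale. The widest gaps were at low levels, up to 0.66 for *Optn* in control PCs.

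**Figure D1:**
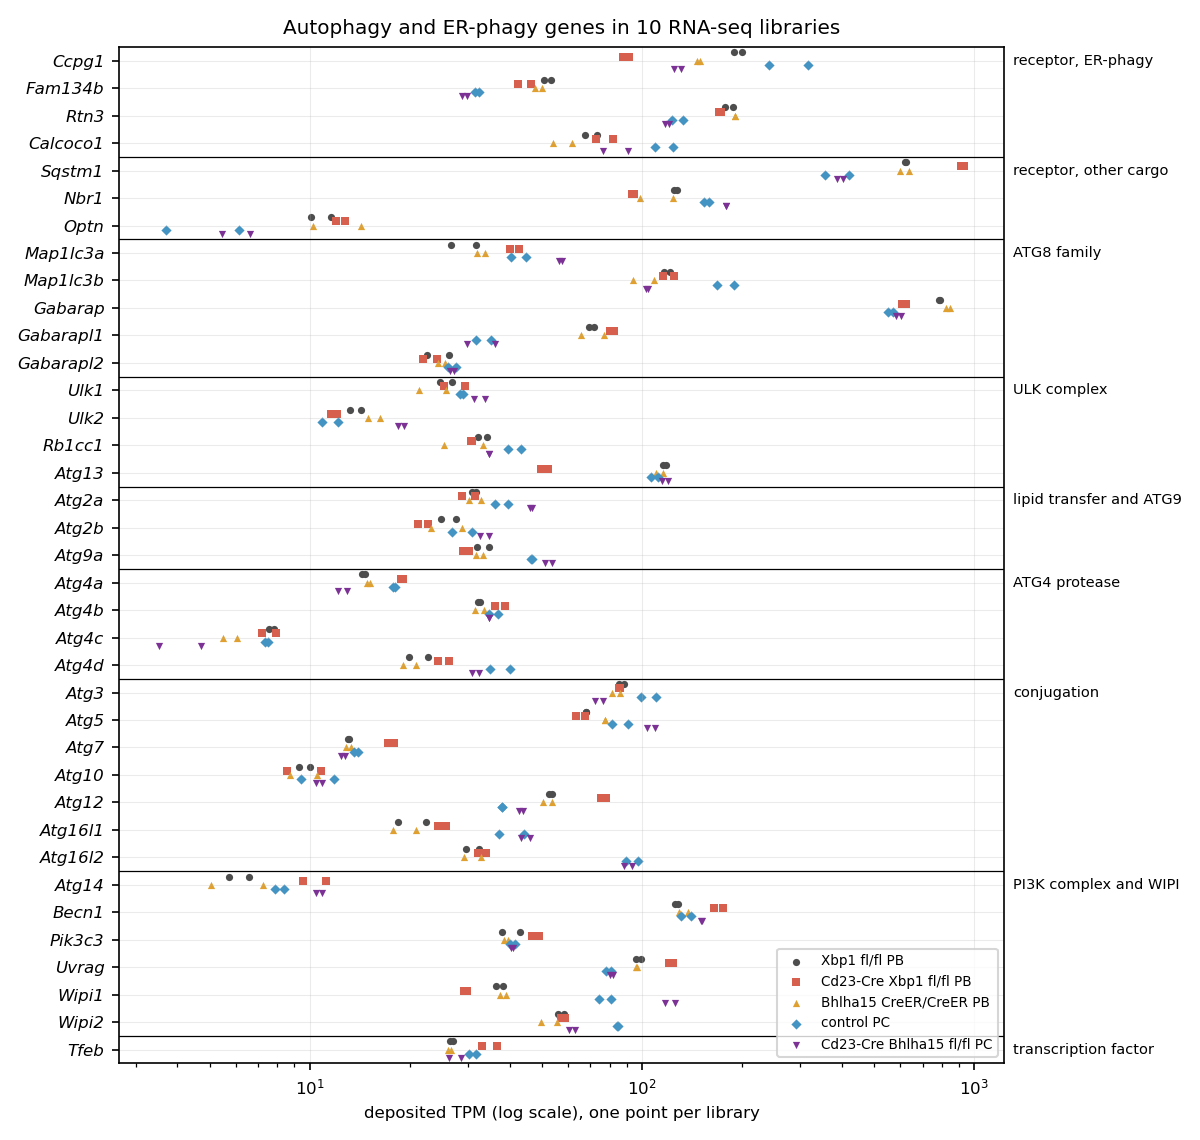
Level of each of the 37 autophagy genes, in deposited TPM on a log axis, ordered by role, with a point for each of the 10 libraries and a symbol for each of the 5 groups. *Gabarap* and *Sqstm1* lie between 356 and 933 TPM in every library, while *Atg14* and *Atg4c* stay below 12 TPM.

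Mist1 regions lay at the start sites of most of these genes. Peaks had been called in each of the 2 libraries apart, with 29413 and 30247 peaks, and 23804 regions were common to both lists with at least 1 shared base. Of the 36 autophagy genes with a protein-coding start in the mouse annotation of the same build (mm9), 30 had a common region within 1 kb of a start, or 83.3%, against 7038 of 11637 expressed genes, or 60.5%. The region covered a start in 29 of 36, or 80.6%, against 55.4% of expressed genes. The 6 without such a region were *Map1lc3a*, *Ulk1*, *Atg10*, *Atg16l1*, *Becn1* and *Pik3c3*, and *Tfeb* had no start in that annotation. The peak lists came from LPS plasmablasts and not from the cells used for RNA, and they hold fewer peaks than the study's text counts, so a gene without a region here may have had a peak that was not analysed here. The part of expression level in the share of genes with a region was not tested.

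Most of the regions carried E-box letters that Mist1 and related factors bind. The letters CAGCTG, which read the same on both strands, occurred in 23 of the 32 regions at autophagy genes, or 71.9%, against 65.5% of 7196 regions at starts of all expressed genes. CATATG occurred in 15.6% against 21.3%, and CACGTG, the letters bound by TFEB and related factors, in 31.3% against 29.4%. These shares lay near those of all genes. The regions at *Ulk2*, *Rb1cc1*, *Atg2a*, *Atg9a* and *Atg4d* held none of these letters. The region at *Ccpg1* (chr9:72832985-72834326) held 4 CAGCTG, that at *Atg13* (chr2:91550221-91552127) 3 CAGCTG and 2 CATATG, that at *Map1lc3b* (chr8:124113645-124115889) 3 CAGCTG, 1 CATATG and 1 CACGTG, and that at *Wipi1* (chr11:109472330-109473772) 2 CAGCTG and 1 CACGTG. A stretch of 120 bases from each of these 4 regions is shown, for genes picked among those that passed the test in a mutant genotype. Each is the stretch of its region with the most E-box letters, which are in capitals, so it does not stand for the other regions. All are mm9, plus strand, outside annotated exons. The *Ccpg1* stretch is chr9:72833867-72833986 in an intron, its middle 515 bases inside the gene from the nearest start. The *Atg13* stretch is chr2:91550745-91550864, its middle at -72 bases from the nearest start, upstream. The *Map1lc3b* stretch is chr8:124114787-124114906 in an intron, 479 bases inside the gene. The *Wipi1* stretch is chr11:109473282-109473401, directly outside the annotated gene, which ends at 109473281 on this side. Its middle is at -596 bases from the start nearest the middle of the region, at 109472746 inside the gene.
Ccpg1: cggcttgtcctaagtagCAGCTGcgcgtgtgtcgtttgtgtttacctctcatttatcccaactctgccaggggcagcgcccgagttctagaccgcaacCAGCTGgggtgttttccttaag
Atg13: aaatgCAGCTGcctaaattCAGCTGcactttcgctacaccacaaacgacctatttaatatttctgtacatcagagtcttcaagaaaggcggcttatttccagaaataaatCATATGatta
Map1lc3b: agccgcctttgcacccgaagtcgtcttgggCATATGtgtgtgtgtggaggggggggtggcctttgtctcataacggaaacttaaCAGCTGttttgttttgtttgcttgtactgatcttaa
Wipi1: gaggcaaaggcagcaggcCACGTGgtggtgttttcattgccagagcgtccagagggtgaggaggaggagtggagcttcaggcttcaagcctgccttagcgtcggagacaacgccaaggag

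**Figure D2:**
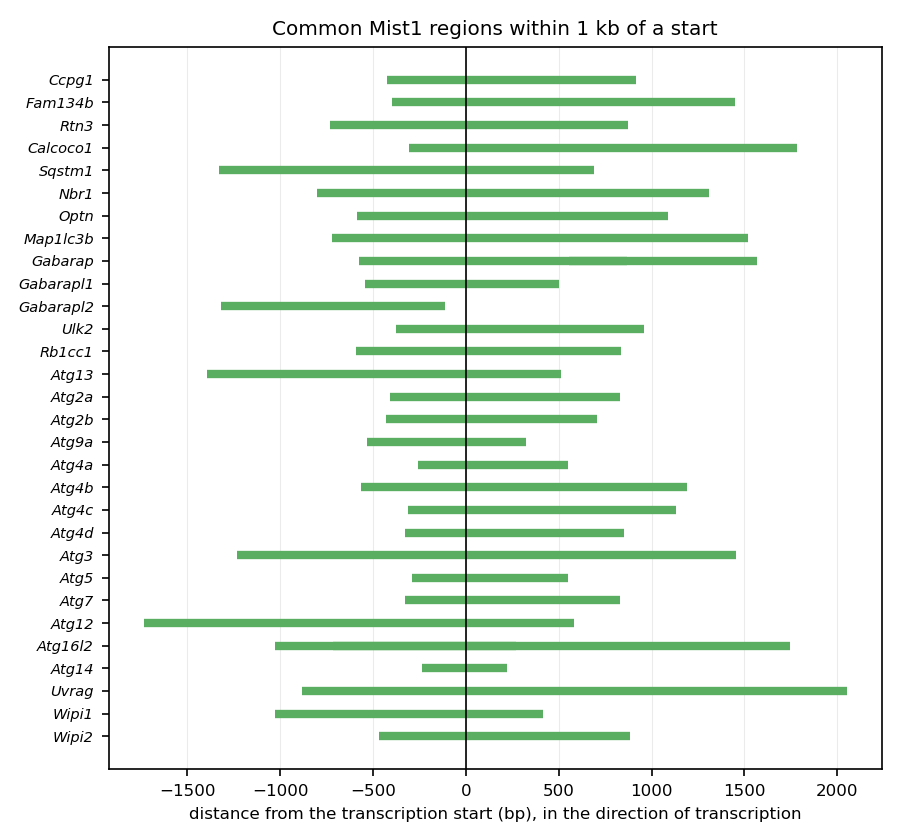
Common Mist1 regions near the start sites of the autophagy genes, drawn to scale as bars by distance in base pairs from the nearest protein-coding start, in the direction of transcription, for the 30 genes that have one. Of 36 genes, 30 have a region within 1 kb and 29 have a region that covers a start.

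The promoters of several of these genes held the letters TGACGT, the core bound by CREB and ATF6 type factors and present in unfolded protein response elements. In RefSeq promoters of the GRCm38.p6 assembly, which run from 250 bases before to 50 after a start, 31 of the 37 genes were matched (*Fam134b* as *Retreg1*), and TGACGT on either strand was found in 9 of them, or 29.0%, against 8.37% of 27025 genes. CACGTG was found in 5 of 31, or 16.1%, against 8.09%, CAGCTG in 22.6% against 18.3%, and CATATG in 3.23% against 4.48%. TGATGNAA, the composite of ATF4 and CHOP, was found in 0 of 31 against 4.51%. All were searched on both strands, and TGACGTCA holds TGACGT on each of them. The 27025 genes were not limited to expressed genes, while all the autophagy genes were expressed. The part of this difference in the shares was not tested. The 9 with TGACGT were *Atg10*, *Atg16l2*, *Atg4a*, *Atg5*, *Fam134b*, *Gabarapl2*, *Nbr1*, *Rtn3* and *Ulk2*. Stretches of 80 bases are shown for 4 of the 5 among them that fell in Xbp1-deficient PBs, with the match in capitals and written along the strand of the gene. For *Fam134b* it is chr15:25843113-25843192 on the plus strand, for *Rtn3* chr19:7483408-7483487 on the minus strand, for *Nbr1* chr11:101551932-101552011 on the plus strand and for *Ulk2* chr11:61855093-61855172 on the minus strand, all GRCm38.p6. Counted from the start, the match begins at -148, -159, -138 and -17 bases in that order.
Fam134b: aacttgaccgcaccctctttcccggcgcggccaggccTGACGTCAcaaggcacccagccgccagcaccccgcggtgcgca
Rtn3: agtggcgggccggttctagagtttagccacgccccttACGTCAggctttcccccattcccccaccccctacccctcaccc
Nbr1: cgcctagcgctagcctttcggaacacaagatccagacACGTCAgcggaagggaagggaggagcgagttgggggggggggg
Ulk2: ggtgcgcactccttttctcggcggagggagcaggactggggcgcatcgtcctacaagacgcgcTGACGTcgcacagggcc

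More of the autophagy genes were lower than higher in the absence of Xbp1. In Xbp1-deficient against *Xbp1* fl/fl PBs, 12 of 37 fell, or 32.4%, and 4 of 37 rose, or 10.8%, in limma on log2 TPM scaled by the median of ratios (adjusted p under 0.05 over 12125 genes). Of all genes tested, 18% were called lower and 10.3% higher, so the share that rose was at the level of all genes. The median change of the 37 was -0.18 on the log2 scale against 0.00 for all genes. *Atg13* and *Ccpg1* fell furthest, 2.66-fold and 2.51-fold. No autophagy gene passed the study's own thresholds, which add a change above 3-fold and a mean above 5 TPM in the higher group and which 1.87% of genes passed. In limma an unadjusted p under 0.05 was found for 20 of 37, and for 4794 of all 12125 genes. The split into lower and higher rests on the scaling, since TPM as deposited placed the median of all genes 0.21 higher in Xbp1-deficient PBs. There 6 of the 37 were lower and 10 higher, with their own median at 0.02, where 1357 of 12125 genes were lower and 3423 higher. Quantile normalization gave 10 lower and 6 higher, and 1965 lower and 2511 higher over all genes. *Ccpg1*, *Fam134b*, *Nbr1*, *Gabarap*, *Atg13* and *Wipi1* were lower in every alternative run. The calls of the 4 that rose were lost when any of the 4 libraries compared was left out. Their changes kept their direction, at 0.31 to 0.42 for *Sqstm1*, 0.22 to 0.38 for *Map1lc3a*, 0.29 to 0.35 for *Atg12* and 0.42 to 0.64 for *Atg14*. Such a fit leaves 1 library in a group, so a lost call cannot be laid to the library left out. With 2 libraries a group, the smallest p that an exact permutation test of a single gene can give is 0.333, so the calls rest on the spread that limma shares between genes, and nothing in the labels says that the libraries came from separate mice.

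Of the ER-phagy receptors 3 of 4 were called lower, where 18% of all genes were, with a median of -0.37. *Ccpg1* encodes an ER membrane receptor that binds FIP200 and ATG8 proteins and is induced by the unfolded protein response. It was at 200 and 190 TPM in controls and at 87.6 and 91.5 TPM in Xbp1-deficient PBs. The groups did not overlap, and the log2 change was -1.33 (SE 0.0886, adjusted p = 1.58e-05). *Fam134b*, the receptor that shapes and clears ER sheets, was at 50.9 and 53.3 TPM against 46.3 and 42.5 TPM, a smaller step also without overlap. After scaling its log2 change was -0.44 (SE 0.0791, adjusted p = 0.00414). *Rtn3*, the receptor of ER tubules, was at 188 and 178 TPM against 171 and 173 TPM and passed narrowly, at -0.30 (adjusted p = 0.0324), a call lost when any of the 4 libraries was left out. *Calcoco1*, a soluble receptor that binds ER proteins, did not pass, at -0.07. *Ccpg1* and *Rtn3* carry a suffix in the deposited table that reads as a mark of overlap with another gene, and strand use in counting was not stated, so reads of an overlapping gene cannot be told apart from theirs. The same suffix stands on *Gabarapl1*, *Atg4d* and *Becn1*.

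Among the receptors for other cargo, *Sqstm1* and *Nbr1* moved apart. *Sqstm1*, the receptor for ubiquitinated protein, was at 624 and 617 TPM in controls and at 912 and 933 TPM in Xbp1-deficient PBs, higher in both mutant libraries. Its log2 change was 0.36 after scaling (adjusted p = 0.0147). *Nbr1*, a related ubiquitin receptor, was at 125 and 127 TPM against 94.6 and 93.5 TPM and fell by 0.63 on the log2 scale (SE 0.0813, adjusted p = 0.000694). *Optn*, a receptor for bacteria and mitochondria, lay between 10.1 and 12.8 TPM in the 4 libraries and did not pass.

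Of the ATG8 proteins, *Gabarap* was at 789 and 781 TPM in controls and 607 and 623 TPM in Xbp1-deficient PBs. The groups were clearly apart, and the log2 change was -0.56 (SE 0.097, adjusted p = 0.00336). *Map1lc3a*, an LC3 protein, was at 26.7 and 31.7 TPM against 42.6 and 40.0 TPM, higher in both mutant libraries, and rose by 0.30 (adjusted p = 0.0393). *Map1lc3b*, the LC3 protein usually followed as a marker of autophagosomes, was at 121 and 117 TPM against 116 and 125 TPM, with overlapping groups in deposited TPM. After scaling the groups were apart, but it did not pass, at -0.20 (adjusted p = 0.253 in limma). *Gabarapl1* and *Gabarapl2* did not pass either.

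Among the subunits of the ULK complex, *Atg13* was affected most. *Atg13*, the adaptor that holds the complex together, was at 118 and 116 TPM in controls and at 49.8 and 52.1 TPM in Xbp1-deficient PBs. The groups were far apart beside the small gap between replicates, with a log2 change of -1.41 (SE 0.0753, 95% interval -1.58 to -1.24, adjusted p = 5.36e-06). *Ulk2*, a kinase of the complex, was at 13.2 and 14.3 TPM against 11.6 and 12.1 TPM and fell by 0.42 (SE 0.0951, adjusted p = 0.0123), and *Rb1cc1*, which encodes the scaffold FIP200, by 0.32 (adjusted p = 0.0383). *Ulk1*, the other kinase, was at 24.8 and 26.9 TPM against 25.4 and 29.4 TPM and did not pass. The gene listed as 9430023L20Rik, an older symbol of *Atg101*, was not called (0.20, adjusted p = 0.119).

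**Figure D3:**
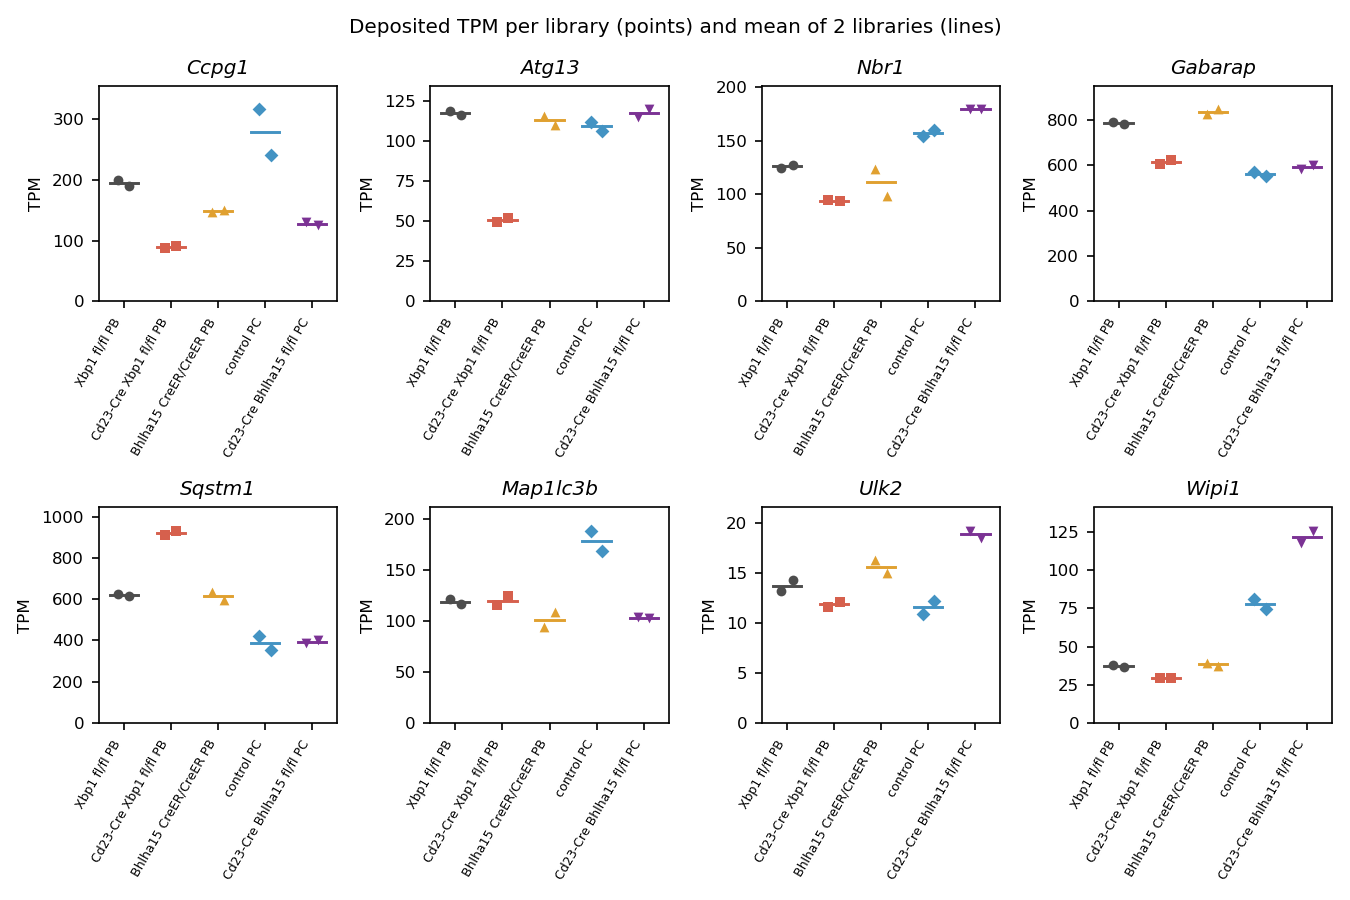
Level in each of the 10 libraries, in deposited TPM on axes that start at 0, with a line at the mean of the 2 libraries of a group, of *Ccpg1*, *Atg13*, *Nbr1*, *Gabarap*, *Sqstm1*, *Map1lc3b*, *Ulk2* and *Wipi1*. *Ccpg1* is lower in both Xbp1-deficient PBs and Mist1-deficient PCs, *Atg13* is at 49.8 and 52.1 TPM in Xbp1-deficient PBs and at 106 TPM or more in every other library, and *Ulk2* and *Wipi1* are higher in Mist1-deficient than in control PCs.

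Of the genes of lipid supply, 2 of 3 fell, where 18% of all genes did. *Atg2b*, a lipid transfer protein, was at 24.8 and 27.7 TPM against 21.2 and 22.7 TPM (log2 change -0.46, SE 0.0935, adjusted p = 0.00707). *Atg9a*, the scramblase of the seed vesicles, was at 31.9 and 34.7 TPM against 29.0 and 30.1 TPM (-0.38, SE 0.0781, adjusted p = 0.00781). Both mutant libraries were below both controls for each, while *Atg2a* was at -0.26 (adjusted p = 0.0553). Of the WIPI proteins, *Wipi1* was at 38.2 and 36.4 TPM in controls and 29.7 and 29.2 TPM in Xbp1-deficient PBs. Its groups did not overlap and it fell by 0.55 (SE 0.0849, adjusted p = 0.00191), whereas *Wipi2*, which recruits ATG16L1, lay between 55.9 and 58.8 TPM in all 4 libraries. In the phosphatidylinositol 3-kinase complex *Atg14* was at 5.74 and 6.57 TPM against 9.53 and 11.2 TPM and rose by 0.54 (SE 0.163, adjusted p = 0.0404). *Becn1*, the regulatory subunit, was at 0.21 (adjusted p = 0.128), and *Pik3c3*, the kinase, and *Uvrag*, the subunit of the endosomal complex, did not pass. In the conjugation systems *Atg12*, the ubiquitin-like protein, was at 52.7 and 53.5 TPM against 75.4 and 77.8 TPM and rose by 0.32 (adjusted p = 0.0114). Its partner *Atg5* fell by 0.27 (adjusted p = 0.0429). None of the enzymes *Atg3*, *Atg7* and *Atg10*, of the *Atg16l* genes or of the 4 *Atg4* proteases was called, and neither was *Tfeb*, the transcription factor of lysosomal and autophagy genes, at 0.17.

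Around these genes, other lists of the pathway were called unevenly in Xbp1-deficient PBs, beside 18% of all genes lower and 10.3% higher. Of 13 further ER-phagy genes, most of them in UFMylation, 10 fell and 0 rose, with a median of -1.03. *Ufl1*, the UFM1 ligase, was at a mean of 84.1 TPM in controls and 24.5 TPM in Xbp1-deficient PBs and fell by 1.98 (adjusted p = 3e-06). Of 8 other initiation genes 4 fell and 0 rose (median -0.29), with *Tmem41b*, an ER scramblase needed for autophagosome formation, at -1.03 and *Nrbf2*, a subunit of the phosphatidylinositol 3-kinase complex, at -0.53. Mitophagy receptors had 2 of 7 lower and 0 higher (median -0.12), and other cargo receptors 2 of 5 lower and 0 higher (median -0.20). Genes of autophagosome fusion had 1 of 14 lower and 4 higher (median 0.08), with *Stx17*, the autophagosomal syntaxin, at 0.55, and the mTORC1 and AMPK list had 2 of 15 in each direction (median -0.03). Of 8 transcription factors 1 fell and 4 rose (median 0.22). *Atf5*, a stress-induced relative of ATF4, was at a mean of 99.8 TPM in controls and 542 TPM in Xbp1-deficient PBs, and *Ddit3*, which encodes CHOP, was at 86.0 and 295 TPM, with log2 changes of 2.23 and 1.59. *Sesn2*, a stress-induced inhibitor of mTORC1, rose by 1.11.

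**Figure D4:**
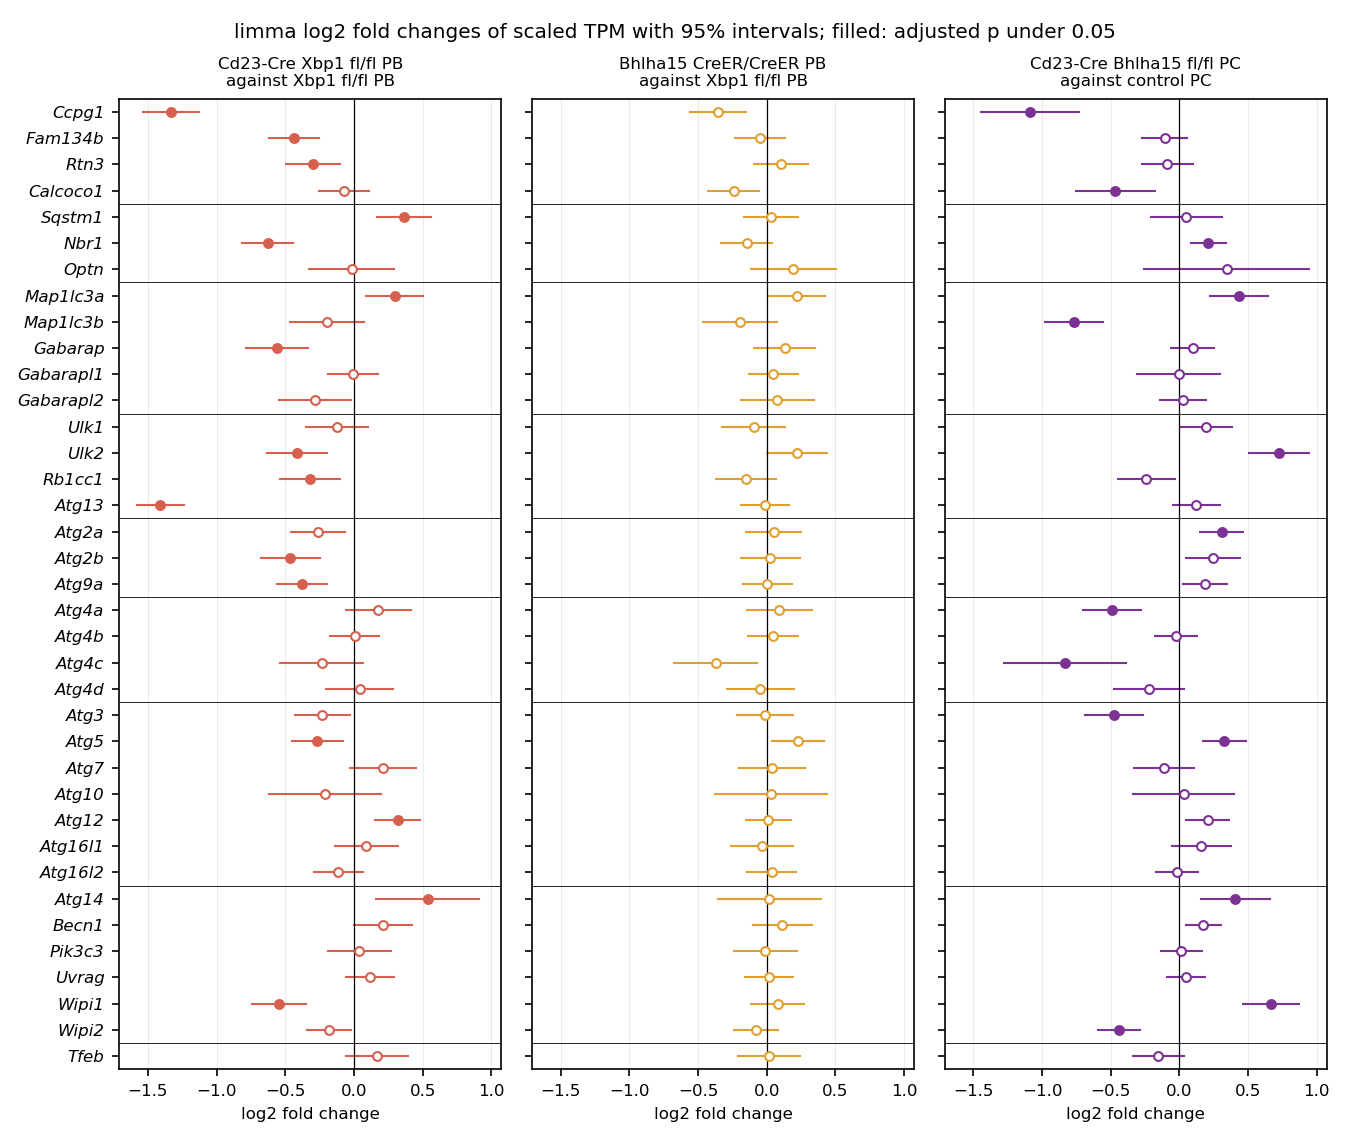
Log2 change of each of the 37 autophagy genes with its 95% interval, ordered by role, for Xbp1-deficient and *Bhlha15* CreER/CreER against *Xbp1* fl/fl PBs and for Mist1-deficient against control PCs; filled points passed the test. The intervals of *Ccpg1* lie below 0 in all 3 comparisons, and *Ccpg1* passed in 2 of them.

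The *Bhlha15* CreER/CreER PBs, which had almost no *Bhlha15* RNA, differed little from *Xbp1* fl/fl PBs at these genes. In limma 0 of 37 were called lower, where 0.272% of all genes were, and 0 were called higher, where 0.0495% were. An unadjusted p under 0.05 was found for 6 of 37 and for 1267 of all 12125 genes, and the median was 0.02 against 0.00 for all genes. The study's thresholds were passed by 0 of the 37 and by 0.0495% of genes. *Ccpg1* was at 200 and 190 TPM in controls and at 147 and 150 TPM in CreER libraries, lower in both. Its log2 change was -0.35 (SE 0.0886, 95% interval -0.56 to -0.15, adjusted p = 0.205). It was called in TPM as deposited (-0.39, adjusted p = 0.0296) and after quantile normalization (-0.40, adjusted p = 0.0286), so the call depends on the scaling. *Atg4c* was at -0.37 (adjusted p = 0.386). *Atg13*, which fell with loss of Xbp1, was at -0.01 with a 95% interval of -0.18 to 0.16, and *Wipi1* was at 0.08. Of the 7 other lists, 0 genes were called in any, with an unadjusted p under 0.05 for 5 genes in all. The control carries floxed *Xbp1* alleles, which the labels do not give for the CreER mice.

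The Xbp1-deficient PBs were also set directly against the CreER PBs, because *Bhlha15* RNA was low in both. Of the 37, 13 were lower, or 35.1%, and 3 higher, or 8.11%, where 17.8% and 9.34% of all genes were called. The median was -0.11 against 0.01. *Atg13* differed by -1.40 (adjusted p = 5.49e-06), *Ccpg1* by -0.98 (adjusted p = 9.2e-05), *Gabarap* by -0.69 (adjusted p = 0.00112), *Ulk2* by -0.64 (adjusted p = 0.00151) and *Wipi1* by -0.63 (adjusted p = 0.000934). *Sqstm1*, *Atg12* and *Atg14* were higher, by 0.33, 0.31 and 0.52. TPM as deposited gave 7 lower and 14 higher, with the median of all genes at 0.26 and 1266 of 12125 genes lower and 3977 higher. Quantile normalization gave 11 and 6, and 1856 and 2325 over all genes. With a library left out, *Sqstm1* was higher by 0.30 to 0.36, *Atg12* by 0.27 to 0.34 and *Atg14* by 0.34 to 0.69. The calls of these genes were lost in some of those fits. This contrast shares the Xbp1-deficient libraries with the first.

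In Mist1-deficient against control splenic PCs 7 of 37 fell and 7 of 37 rose, or 18.9% each. Of 12028 genes 16.2% were called lower and 13.3% higher, so both shares lay near those of all genes. The median was 0.03 against 0.01 for all genes, and 20 of 37 had an unadjusted p under 0.05, as had 5177 of the 12028 genes. None passed the study's thresholds, which 0.848% of all genes did. *Ccpg1*, *Map1lc3b*, *Ulk2* and *Wipi1* were called in every alternative run. The other calls were lost in some of these runs. With a library left out, the log2 change was -1.32 to -0.86 for *Ccpg1* and -0.88 to -0.65 for *Map1lc3b*. It was 0.67 to 0.77 for *Ulk2* and 0.57 to 0.76 for *Wipi1*.

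In Mist1-deficient PCs the ER-phagy receptors had 2 of 4 lower, where 16.2% of all genes were called lower, and a median of -0.29. *Ccpg1* was at 316 and 241 TPM in control PCs and at 131 and 125 TPM in Mist1-deficient PCs. The control libraries differed from each other, yet the lower of them was well above both mutant libraries, and the log2 change was -1.09 (SE 0.144, 95% interval -1.45 to -0.73, adjusted p = 0.00507), or 2.13-fold. *Calcoco1* was at 124 and 109 TPM against 76.3 and 90.5 TPM and fell by 0.47 (SE 0.116, adjusted p = 0.0316). Its call was lost without the filter on low values and without the trend. With a library left out its change ranged from -0.59 to -0.34. *Fam134b* and *Rtn3* did not pass.

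Among the ATG8 proteins *Map1lc3b* was at 189 and 168 TPM in control PCs and at 104 and 103 TPM in Mist1-deficient PCs. The groups did not overlap and it fell by 0.77 (SE 0.0845, adjusted p = 0.00319), or 1.70-fold. *Map1lc3a* was at 44.9 and 40.5 TPM against 56.4 and 57.3 TPM and rose by 0.43 (SE 0.086, adjusted p = 0.0167). Of the proteases that prepare these proteins, *Atg4a* was at 17.9 and 18.1 TPM against 13.0 and 12.2 TPM and fell by 0.49 (SE 0.0863, adjusted p = 0.0115). *Atg4c* was lower still, at 7.52 and 7.36 TPM against 3.53 and 4.72 TPM, a log2 change of -0.83 (SE 0.18, adjusted p = 0.0212). *Atg3*, the enzyme that joins ATG8 proteins to lipid, fell from 110 and 99.5 TPM to 76.6 and 72.2 TPM, by 0.48 (SE 0.0853, adjusted p = 0.0124), and *Atg5* rose by 0.33 (adjusted p = 0.0151).

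The WIPI genes moved in opposite directions. *Wipi1* was at 81.0 and 74.3 TPM in control PCs and at 118 and 126 TPM in Mist1-deficient PCs and rose by 0.67 (SE 0.0821, adjusted p = 0.0042), or 1.59-fold. *Wipi2* was at 84.9 and 84.1 TPM against 60.2 and 62.8 TPM and fell by 0.44 (SE 0.0621, adjusted p = 0.00611). The groups were apart for both. In the ULK complex *Ulk2* was at 10.9 and 12.2 TPM against 19.3 and 18.5 TPM, higher in both mutant libraries, and rose by 0.72 (SE 0.0883, adjusted p = 0.00416), while *Atg13* was at 112 and 106 TPM against 115 and 120 TPM and did not pass. *Atg14* (0.41, adjusted p = 0.032), *Atg2a* (0.31, adjusted p = 0.0185) and *Nbr1* (0.21, adjusted p = 0.0283) also rose.

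Calls in the other lists of the pathway in Mist1-deficient PCs stand beside 16.2% of all genes lower and 13.3% higher. Further ER-phagy genes had 1 of 13 lower and 3 higher (median 0.01), with *Tex264*, an ER-phagy receptor, at 0.61. Mitophagy receptors had 1 of 7 in each direction (median -0.11), with *Pink1*, the mitochondrial kinase, at -0.87. Other cargo receptors had 1 of 4 in each direction (median -0.06), and initiation genes 2 of 8 in each (median 0.18). Genes of fusion had 4 of 14 lower and 1 higher (median -0.10), led by *Tecpr1*, a tethering factor, at -0.93 and *Vamp8*, a lysosomal SNARE protein, at -0.74. In the mTORC1 and AMPK list 3 of 15 were lower and 1 higher (median -0.01). There *Deptor*, an inhibitor of mTOR, was at a mean of 4.31 TPM in controls and 0.464 TPM in mutants (-2.92), and *Ddit4*, a stress-induced inhibitor of mTORC1, at 94.7 and 36.3 TPM (-1.36). Of the transcription factors 1 of 8 was lower and 0 higher (median -0.03).

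The effect of Mist1 loss differed between PCs and cultured PBs for a few of the genes. In a test of the difference of the effects (the PC effect minus the PB effect) 3 of 37 were lower, or 8.11%, and 2 higher, or 5.41%, where 4.17% and 1.94% of 13230 genes were called. *Ccpg1* differed by -0.72 (SE 0.174, adjusted p = 0.0457), *Atg4a* by -0.57 (SE 0.121, adjusted p = 0.0297) and *Wipi2* by -0.35 (SE 0.0783, adjusted p = 0.0366). *Wipi1* differed by 0.60 (SE 0.107, adjusted p = 0.0168) and *Ulk2* by 0.51 (SE 0.118, adjusted p = 0.0392). *Map1lc3b* did not pass, at -0.56 (adjusted p = 0.0616). With a library left out, the difference was -0.94 to -0.49 for *Ccpg1*, -0.64 to -0.50 for *Atg4a* and -0.38 to -0.31 for *Wipi2*. It was 0.51 to 0.70 for *Wipi1* and 0.47 to 0.57 for *Ulk2*. Each of these calls was lost in some of those fits. The 2 contrasts also differ in the *Bhlha15* allele, in the control genotype and in the cells, which cannot be told apart.

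Control PCs and *Xbp1* fl/fl PBs differed at most of these genes, as at most genes. Of the 37, 10 were lower in PCs, or 27.0%, and 13 higher, or 35.1%, where 38.4% and 37.6% of 13230 genes were called, so both shares were below those of all genes. The median was 0.04 against 0.01. Stage, culture, sort and experiment cannot be told apart in this contrast. *Atg16l2*, a relative of *Atg16l1*, was at 29.6 and 32.4 TPM in PBs and at 89.5 and 97.4 TPM in PCs. It was higher in both PC libraries by 1.47 on the log2 scale (SE 0.0624, adjusted p = 8.99e-08), or 2.78-fold. *Atg16l1*, the subunit that places the conjugation machinery on the membrane, was also higher, at 18.5 and 22.4 TPM against 37.2 and 44.2 TPM (0.88, SE 0.1, adjusted p = 3.91e-05). *Wipi1* was at 38.2 and 36.4 TPM in PBs and at 81.0 and 74.3 TPM in PCs, without overlap (0.94, SE 0.0753, adjusted p = 3.8e-06). *Atg4d* (0.70, SE 0.104, adjusted p = 0.000225), *Calcoco1* (0.61, SE 0.102, adjusted p = 0.000446), *Map1lc3b* (0.47), *Wipi2* (0.45) and *Ccpg1* (0.39, adjusted p = 0.0171) were among the other genes higher in PCs. The call of *Ccpg1* was lost without control PC replicate 1 (0.17) or *Xbp1* fl/fl replicate 2 (0.32) and when only the libraries compared were fitted (0.37), and without control PC replicate 2 its change was 0.61.

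Of the genes lower in PCs, *Optn* was at 10.1 and 11.6 TPM in PBs and 3.71 and 6.13 TPM in PCs (-1.28, SE 0.217, adjusted p = 0.00052). *Gabarapl1* was at 71.9 and 69.6 TPM against 35.2 and 31.6 TPM (-1.20, SE 0.103, adjusted p = 6.25e-06). *Fam134b* was at 50.9 and 53.3 TPM against 31.4 and 32.3 TPM (-0.82, SE 0.0648, adjusted p = 3.57e-06). The PC libraries were below both PB libraries for each of the 3. *Sqstm1* (-0.80, SE 0.0874, adjusted p = 2.95e-05), *Rtn3* (-0.63, SE 0.0714, adjusted p = 3.79e-05), *Gabarap* (-0.60) and *Atg12* (-0.60) were lower as well, and *Ulk2* and *Atg13* less so (-0.36 and -0.22). The fibroblast markers differed between PBs and PCs by the sums given above, and their part in these differences was not tested. TPM as deposited gave 9 lower and 17 higher, where 4471 of 13230 genes were lower and 5552 higher.

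**Figure D5:**
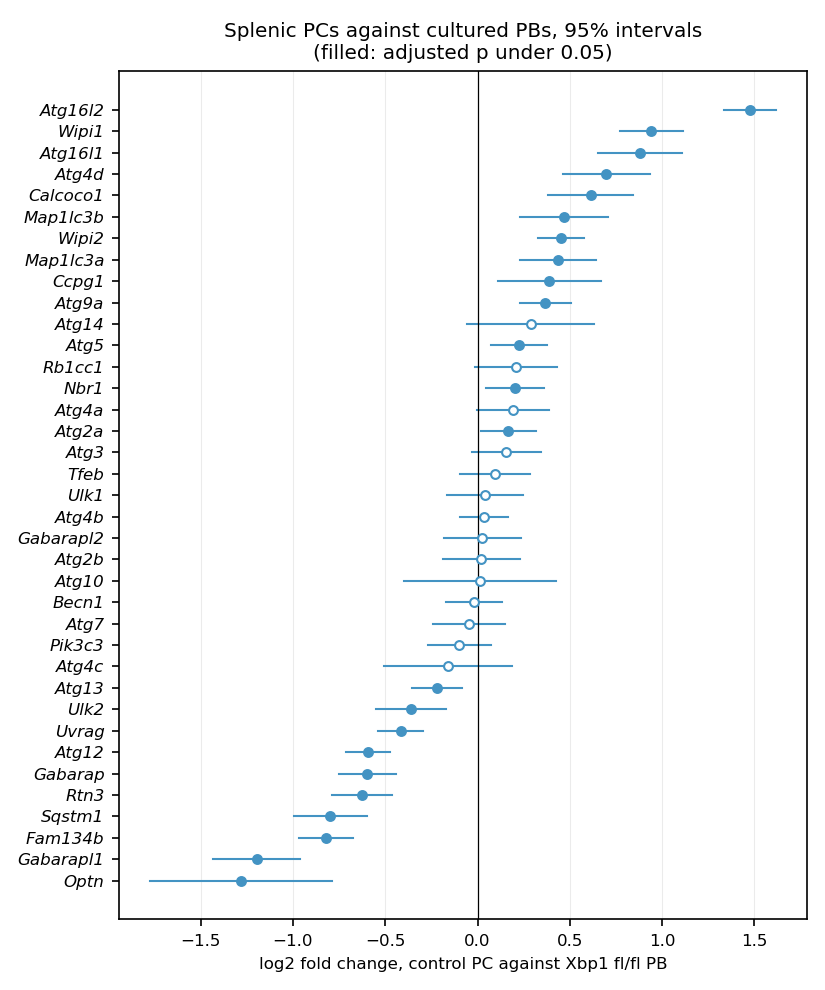
Log2 fold change (x axis) of the 37 autophagy genes in control PCs against *Xbp1* fl/fl PBs with 95% intervals, in order of size, with filled points for an adjusted p under 0.05 in limma. *Atg16l2* (1.47) stands at the top, *Gabarapl1* (-1.20) and *Optn* (-1.28) at the bottom, and 13 filled points lie above 0 and 10 below.

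The Mist1 regions and promoter letters can be read beside the calls as a description. A common Mist1 region lay at all 12 of the autophagy genes that fell in Xbp1-deficient PBs, against 78.3% of all genes called lower there, at 3 of the 4 that rose (62.1% of all genes called higher) and at 15 of the 20 not called (59.4%). In Mist1-deficient PCs a region lay at all 7 that fell (83.3%), at 6 of the 7 that rose (57.4%) and at 17 of the 22 not called (62.5%). *Wipi1* and *Ulk2*, which rose in Mist1-deficient PCs, carried a region at their start as did *Ccpg1* and *Map1lc3b*, which fell. Of the 9 genes with TGACGT in the promoter, 5 fell and 0 rose in Xbp1-deficient PBs, with a median of -0.28, and of the 22 without it 6 fell and 2 rose, with a median of -0.15. Among those 5, the calls of *Fam134b* and *Nbr1* were kept in every alternative run and those of *Rtn3*, *Ulk2* and *Atg5* were not. How many of all genes with TGACGT fell was not counted, and a link between these letters and the fall was not tested. *Ccpg1* and *Atg13*, which fell furthest, were among the 22, and no match says only that these letters are not in the 300 bases read.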

How the data were processed

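RNA-seq was deposited for 10 libraries in 5 groups and Mist1 Bio-ChIP-seq as 2 peak lists. According to the study's methods and the submitters' processing notes, the authors trimmed reads with cutadapt, aligned them to mm9 with STAR 2.4.2, counted them with featureCounts 1.5, left out immunoglobulin and T cell receptor genes and deposited TPM per gene. Peaks were called by the authors with MACS in each library after Bowtie 1.0.0, and only the positions of the deposited peaks were used.

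Groups were taken from the labels. TPM were scaled by the median of ratios within each model (6 PB, 4 PC or all 10 libraries), and a gene was tested when 2 or more libraries reached 1 TPM. log2(TPM + 0.1) was fitted with limma 3.58.1 (trend) in R 4.3.3, with Benjamini-Hochberg adjustment over all genes tested and a threshold of 0.05. Fold changes are on that scale and understate changes of low genes. Every test is two-sided. The procedure was tested on simulated data. Peaks were joined with bedtools 2.31.1 (at least 1 bp shared) and matched to starts within 1 kb. The autophagy genes and all lists were chosen with earlier results of these data known. The autophagy genes were taken by role, with full statistics for at most the 10 called genes of largest change in a contrast, and at most 2 called genes were named from each other list, and a few items are not reported here. Alternatives were other scalings, filters and pseudocounts, fits without the trend, fits of only the libraries compared, and each library left out in turn.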

Additional observations from a re-analysis of the deposited data

Results flagged for a closer look

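The effect of Mist1 loss differed between PCs and cultured PBs for 5 autophagy genes in limma's test of the difference of the effects, which is what marked them for a closer look. *Ccpg1* was lowered more in PCs (difference -0.72, SE 0.174, adjusted p = 0.0457), with an effect of -1.09 in PCs and -0.35 in PBs and both mutant libraries below both controls in each. *Atg4a* (difference -0.57, adjusted p = 0.0297) and *Wipi2* (difference -0.35, adjusted p = 0.0366) fell in PCs and were not called in PBs. *Wipi1* (difference 0.60, adjusted p = 0.0168) and *Ulk2* (difference 0.51, adjusted p = 0.0392) rose in PCs, with PB effects of 0.08 and 0.22. None of the 5 was called in every alternative, and allele, control genotype, stage and culture cannot be told apart.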

How the results depend on the processing

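No autophagy gene that was called changed direction in any alternative run. With TPM as deposited, Xbp1-deficient against *Xbp1* fl/fl PBs had 6 lower and 10 higher, Xbp1-deficient against CreER PBs 7 lower and 14 higher, and CreER against *Xbp1* fl/fl PBs 1 lower. In that order, these runs called 1357, 1266 and 74 of all 12125 genes lower and 3423, 3977 and 12 higher. Quantile normalization gave 1 lower in CreER PBs, 11 higher in Mist1-deficient PCs and 6 higher in Xbp1-deficient against CreER PBs. The counts over all genes were 63 lower, 1939 higher and 2325 higher in that order. Without the trend, 2 were higher in Xbp1-deficient PBs, 3 higher in Mist1-deficient PCs and 2 differed between the effects of Mist1 loss. Of all genes, 889 were then higher in Xbp1-deficient PBs and 844 in Mist1-deficient PCs, against 1250 and 1601 with the trend. For the differing effects, 227 were lower and 96 higher, against 552 and 257 with the trend. Without a filter 2 were higher in Xbp1-deficient PBs, and at least 5 TPM in 2 libraries gave 8 differing effects. Over all genes, 1002 of 19068 were higher in Xbp1-deficient PBs without a filter. With at least 5 TPM, 605 of 10732 differing effects were lower and 295 higher. Only the libraries compared gave 1 higher in Xbp1-deficient against CreER PBs and 1 differing effect. Over all genes, 867 of 11972 were higher in Xbp1-deficient against CreER PBs. Of 13076 differences of the effects, 416 were called lower and 179 higher. Leaving out each library in turn gave 7 to 9 lower and 0 higher in Xbp1-deficient PBs, 2 to 9 lower and 2 to 11 higher in Mist1-deficient PCs, 9 to 11 lower and 9 to 12 higher in PCs against PBs, 10 to 13 lower and 0 to 3 higher in Xbp1-deficient against CreER PBs, and 0 to 7 differing effects. Where a group was left with 1 library, that library was assumed to vary like the others. In Xbp1-deficient against *Xbp1* fl/fl PBs, each of these fits called fewer of all genes in both directions than the fit of all libraries. In Mist1-deficient PCs, fits without a mutant library called fewer in both directions, and the fit without control PC replicate 2 called more. The cause of these shifts was not tested. Mist1 regions lay at 29 to 32 of 36 genes with a window of 2.5 kb, a stricter overlap or single lists, at 31 within the gene body and at 34 within 10 kb of it. With 2 libraries a group and no read depth in TPM, small changes were not resolved. No paired analysis was possible because the labels give no numbers that pair samples.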

Other observations

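Lists next to the autophagy genes differed between control PCs and *Xbp1* fl/fl PBs in both directions, where stage, culture and sort cannot be told apart and 38.4% of all genes were called lower and 37.6% higher. Mitophagy receptors had 5 of 7 lower in PCs and 1 higher (median -0.41 on the log2 scale), led by *Bnip3*, a hypoxia-induced receptor, at -5.03. Genes of autophagosome fusion had 2 of 14 lower and 7 higher (median 0.27), with *Stx17* at 1.51, and the mTORC1 and AMPK list had 1 of 15 lower, *Sesn2* at -1.93, and 6 higher. Further ER-phagy genes had 4 of 13 in each direction. Of the transcription factors, *Nupr1*, a stress-induced regulator, was lower by 4.90 (log2 change -4.90) and *Mitf*, a relative of *Tfeb*, was higher by 1.58.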
